A study of Homo sapiens with 11 samples.

Results

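The 8 cell-surface receptor genes NTRK2, NTRK3, NGFR, RET, GFRA1, GFRA2, GFRA3 and ALK, through which nerve growth and survival factors act were followed in IMR32 neuroblastoma cells. Every probe set on the array whose annotated symbol, current or former, was one of these 8 genes was taken, which gave 28 of 54675 probe sets. At least 1 probe set of 5 genes, NTRK3, RET, GFRA1, GFRA2 and ALK, lay above the brightness limit used for testing, a mean signal of about 14.8, while NTRK2, NGFR and GFRA3 lay below it. IMR32 is an established human neuroblastoma line with amplification of MYCN. Per the labels, cells grown in DMEM with fetal calf serum were sampled on 2 arrays without virus at 0 hours, on 1 array each at 24, 48 and 72 hours after pLenti virus with the control hairpin SHC002, and on 2 arrays each (A and B) at the same 3 times after pLenti virus with a hairpin against MYCN. All groups are of 1 cell line and 1 hairpin per virus, no second MYCN hairpin was used here, and the labels do not say whether A and B were grown apart. The p-values therefore rest on array-to-array spread that could be technical only.

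The TRK proteins, encoded by the NTRK genes, are receptor tyrosine kinases that bind neurotrophins. NTRK2 encodes the receptor for BDNF and NTRK3 that for NTF3, while NGFR encodes the death domain receptor that binds all neurotrophins and can act beside a TRK. RET is the signalling kinase of the GDNF family ligands, which reach it through lipid-anchored co-receptors: GFRA1 binds GDNF, GFRA2 neurturin and GFRA3 artemin. ALK is a receptor tyrosine kinase activated by the ALKAL ligands and is mutated in a part of neuroblastomas. These receptors pass their signal through adaptor proteins to the RAS-ERK and PI3K routes, and in sympathetic neurons and neuroblastoma they are known for their part in survival, growth and differentiation.

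RefSeq sequence upstream of the transcription start (GRCh38.p14, 250 bases, gene strand) was matched by symbol to 6 of the 8 genes. It is shown for NTRK3 and ALK, since these are the receptors with matched sequence whose levels differed between arrays labelled shMYCN and control virus. MYC family proteins bind the sequence CACGTG, an E-box, within the wider class CANNTG, and capitals mark every CANNTG found. Both motifs read the same on both strands, and each CACGTG is also a CANNTG.
NTRK3, chr15:88256740-88256989, minus strand: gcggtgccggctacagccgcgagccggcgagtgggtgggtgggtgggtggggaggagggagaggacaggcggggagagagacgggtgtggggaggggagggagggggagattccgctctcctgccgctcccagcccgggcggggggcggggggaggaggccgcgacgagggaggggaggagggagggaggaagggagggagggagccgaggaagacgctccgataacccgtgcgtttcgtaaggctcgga
ALK, first listed start, chr2:29223824-29224073, minus strand: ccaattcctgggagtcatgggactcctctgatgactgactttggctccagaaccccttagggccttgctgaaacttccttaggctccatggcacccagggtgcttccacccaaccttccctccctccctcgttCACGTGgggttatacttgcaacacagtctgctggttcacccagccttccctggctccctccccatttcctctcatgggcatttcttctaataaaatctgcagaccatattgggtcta
ALK, second listed start, chr2:29921587-29921836, minus strand: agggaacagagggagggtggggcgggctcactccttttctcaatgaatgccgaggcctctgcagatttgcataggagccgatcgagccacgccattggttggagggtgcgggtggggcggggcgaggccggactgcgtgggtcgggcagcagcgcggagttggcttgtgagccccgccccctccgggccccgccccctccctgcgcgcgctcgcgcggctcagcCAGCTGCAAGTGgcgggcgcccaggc
The NTRK3 window held no CANNTG. The ALK starts are listed by coordinate, so on this minus strand the first lies downstream of the second. The first, downstream ALK window held 1 match, a CACGTG 117 bases before its start. The second, upstream ALK window held 2 adjacent CANNTG and no CACGTG. The 6 matched genes had 14 windows, of which 1 (7.14%), the downstream one of ALK, held CACGTG. Among 35116 windows of 250 bases, with no chromosome left out, 6.34% held CACGTG and 61.8% held CANNTG.

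The hairpin's target was examined before the receptors. The brightest MYCN probe set, 209757_s_at, read 5040 and 4507 without virus, and 5332, 5389.7 and 5055 with control virus at 24, 48 and 72 hours. On arrays labelled shMYCN it read 5488 and 4567 at 24 hours, 5241 and 5317 at 48 hours, and 5624 and 4946.5 at 72 hours. Its log2 fold change, averaged over the 3 hours, was -0.02 ± 0.08 (SE, limma adjusted p = 0.866), so no fall passed the test. At 24 hours probe sets 209756_s_at and 211377_x_at were lower, at log2 fold changes of -0.55 and -0.52, and did not pass the test (adjusted p = 0.663 and 0.676). At 72 hours they were higher, at 0.93 and 0.68, and did not pass either (adjusted p = 0.0996 and 0.214). From 24 to 72 hours under the shMYCN label both rose (1.35 and 1.26, adjusted p = 0.0106 and 0.0133, in the fit of every probe set). Because the transcript gives no fall that passes the test, "labelled shMYCN" is used throughout. Where these probe sets lie relative to the hairpin's target site was not examined here.

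All 11 arrays were comparable in scale, with median signals of 14.9 to 16.7, and arrays of the same group had r = 0.987 to 0.995 over genes (genes are no independent replicates). Of 9 markers of sympathetic neuroblastoma cells on the array, 8 were above the brightness limit, TH being the exception. Schwann cell and leukocyte markers were all below it (0 of 4 each), and of 4 endothelial markers PECAM1 alone was above. Of 6 fibroblast markers, COL1A1 and PDGFRB were above it. The fibroblast markers' summed signal was 333 to 406 on the 5 arrays without virus or with control virus and 469 to 721 on the 6 arrays labelled shMYCN. The other 4, COL1A2, COL3A1, DCN and LUM, were below the limit, and the part of COL1A1, PDGFRB or the cells that make them in the results that follow was not tested. In such samples fewer cells of a type and less RNA per cell cannot be told apart.

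GFRA2 was lower on every array labelled shMYCN than on the control virus array of its hour, and its level fell from 24 to 72 hours. Of all genes tested, 36.1% had their 6 shMYCN-label values all above or all below the matching control values. The log2 fold change is of signal + 16, as for every fold change here, and averaged over the 3 hours it was -0.55 ± 0.09 (SE), or 1.47-fold lower (limma adjusted p = 0.000587). NTRK3, by its brightest probe set, was 1.64-fold lower (log2 -0.71 ± 0.14, adjusted p = 0.00205). At its low signals this size depends on the offset, being -1.01 with an offset of 1 and -0.38 with 64. ALK was 1.16-fold higher (log2 0.21 ± 0.06, adjusted p = 0.0115), and RET and GFRA1 did not pass the test. Thus 1 of the 5 tested receptors rose and 2 fell, where 37.9% of all 11865 genes tested were called, 22.2% higher and 15.8% lower. A count over 5 genes is too small to be read as a result beside that background, and the results below are the values of each gene. The median log2 fold change of the 5 tested receptors was -0.12, beside 0.037 for all genes.

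**Figure D1:**
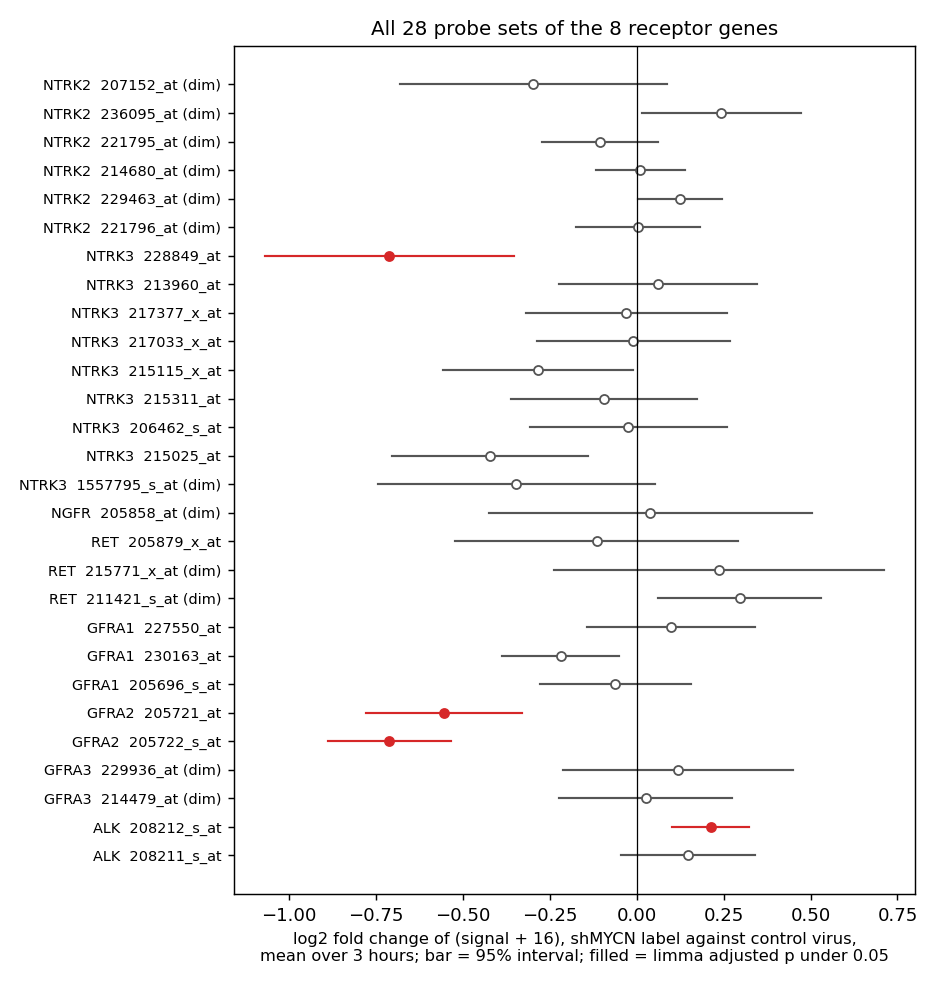
Log2 fold change (horizontal axis, of signal + 16) between arrays labelled shMYCN and control virus, averaged over 3 hours, for each of the 28 probe sets (vertical axis), with the 95% interval from the fit of all probe sets; filled red points have a limma adjusted p under 0.05 and "dim" marks probe sets below the brightness limit. Both GFRA2 probe sets, 1 of 9 NTRK3 probe sets and 1 of 2 ALK probe sets are filled.

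GFRA2, the neurturin co-receptor, was lower by both of its probe sets. Probe set 205721_at read 1617 and 1712 without virus, and 1795, 1549.5 and 1380.1 with control virus at 24, 48 and 72 hours. On arrays labelled shMYCN it read 1467 and 1487 at 24 hours, 849 and 1187 at 48 hours, and 834 and 779 at 72 hours. The 4 arrays labelled shMYCN at 48 and 72 hours lay below all 5 arrays without the MYCN hairpin, while those at 24 hours lay above the control virus array of 72 hours, so the groups overlapped over all hours. The second probe set, 205722_s_at, read 868 and 971 without virus, and 989.8, 1032 and 722 with control virus. It read 730.5 and 700.2 at 24 hours, 512 and 634 at 48 hours, and 380.5 and 414.5 at 72 hours under the shMYCN label. All 6 arrays were again below the control of their hour, and those of 48 and 72 hours were below every array without the MYCN hairpin. In the fit of every probe set, where 14.7% of 41091 probe sets were called, both GFRA2 probe sets passed for the mean over 3 hours (log2 -0.55 ± 0.10, adjusted p = 0.00706, and -0.71 ± 0.08, adjusted p = 0.000769). The 2 probe sets correlated at r = 0.952 over the 11 arrays. Without the control virus array of 72 hours, 205721_at missed the threshold in that fit (-0.45, adjusted p = 0.0833). In the main fit GFRA2 kept its call without each array in turn. Each hour has 1 control virus array, so leaving it out takes that hour out of the mean over 3 hours, here and below. The value of -0.45 is therefore the mean over 24 and 48 hours, without the shMYCN-label arrays of 72 hours.

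By hour, the GFRA2 difference from control virus was -0.28 ± 0.16 (log2, SE) at 24 hours, -0.62 ± 0.16 at 48 hours and -0.76 ± 0.16 at 72 hours. It passed the test at 48 hours (adjusted p = 0.0199) and at 72 hours (adjusted p = 0.00295) but not at 24 hours (adjusted p = 0.552). Within the arrays labelled shMYCN, GFRA2 fell 1.82-fold from 24 to 72 hours (log2 -0.86 ± 0.13, adjusted p = 0.000351). Under control virus the same interval gave -0.38 ± 0.18 (adjusted p = 0.6996), from 1 array at each time. The difference between these changes was -0.49 ± 0.22 and did not pass (adjusted p = 0.191). It passed without shMYCN array A or B of 48 hours, but those arrays do not enter it. Its size was therefore unchanged and only its test changed. Against no virus, GFRA2 was 1.56-fold lower (log2 -0.64 ± 0.10, adjusted p = 0.000772). The 48-hour call was lost when dim genes were kept in the test (adjusted p = 0.0647). In order of mean signal, the groups ran from control virus at 24 hours (1795) through no virus, control virus at 48 hours, shMYCN label at 24 hours and control virus at 72 hours to shMYCN label at 48 hours (1018) and 72 hours (806). From no virus down to control virus at 72 hours, neighbours differed by less than the pooled SD of 126. The step above those groups and the 2 steps below them were larger.

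**Figure D2:**
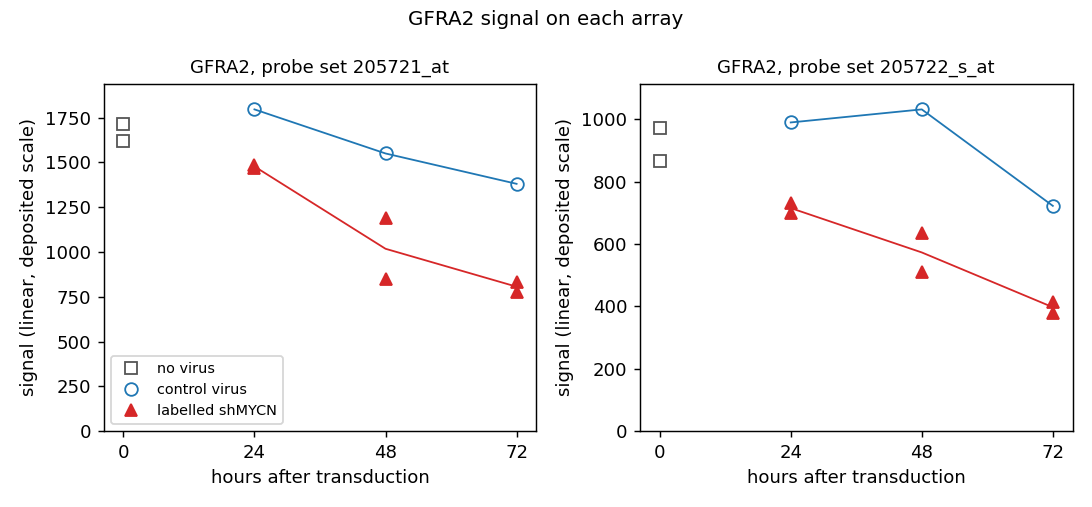
Signal (linear, deposited scale, vertical axis from 0) of both GFRA2 probe sets on each of the 11 arrays against hours after transduction, with lines through group means. In the left panel the 4 filled triangles of 48 and 72 hours, at 779 to 1187, lie below every other array, the lowest of which is the control virus array of 72 hours at 1380.1.

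NTRK3, the NTF3 receptor, had 9 probe sets, 8 of them above the brightness limit. Its brightest, 228849_at, read 57.7 and 50.8 without virus and 54, 66.1 and 60.5 with control virus at 24, 48 and 72 hours. On arrays labelled shMYCN it read 44.4 and 40.3 at 24 hours, 35.3 and 32.7 at 48 hours, and 10.9 and 27.8 at 72 hours. All 6 of these lay below all 5 arrays without the MYCN hairpin, as did 6.52% of all genes tested. By hour, its log2 difference from control virus was -0.26 ± 0.24 (adjusted p = 0.776), -0.72 ± 0.24 (adjusted p = 0.0646) and -1.16 ± 0.24 (adjusted p = 0.00354), the last a 2.23-fold lower level (-1.73 with an offset of 1 and -0.59 with 64). From 24 to 72 hours under the shMYCN label it fell 1.70-fold (log2 -0.76 ± 0.20, adjusted p = 0.0108). That call was lost without array A of 24 hours (adjusted p = 0.0735) or array A of 72 hours (adjusted p = 0.103). The change of the difference between 24 and 72 hours was -0.89 ± 0.34 and did not pass (adjusted p = 0.127), though it passed without array B of 72 hours (-1.24, adjusted p = 0.0285). The 48-hour difference passed with an offset of 64 (adjusted p = 0.0305). It also passed without array A or B of 72 hours, which do not enter it, so its size was unchanged and only its test changed. Against no virus NTRK3 was lower (log2 -0.60 ± 0.16, adjusted p = 0.0160), and that call was lost without either array of that group (adjusted p = 0.139 and 0.0648), with dim genes kept (0.0621) and with the mean of all probe sets (0.102).

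The other NTRK3 probe sets gave smaller differences. Over the 9 probe sets, 8 of the log2 differences averaged over 3 hours were negative, from -0.71 to 0.062, and in the fit of every probe set 228849_at alone passed (adjusted p = 0.0185). In that fit its call was lost without control virus of 48 or 72 hours or array B of 24 hours (adjusted p = 0.0573, 0.223 and 0.0546). Probe set 215025_at came next, at -0.42 ± 0.12 (adjusted p = 0.0557). It read 24.1 to 28 on the 5 arrays without the MYCN hairpin and 8.6 to 22.7 on the 6 labelled shMYCN, so these groups did not overlap either, which held below for 3.97% of probe sets. Probe set 217033_x_at, whose suffix x marks probes that can also bind other genes, read 44.8 and 44.1 without virus, 41.9, 13.8 and 26.8 with control virus, and 21.1 to 32.5 on arrays labelled shMYCN. It was lower under the shMYCN label than without virus (-0.54 ± 0.14, adjusted p = 0.0463) and its difference from control virus was -0.010 ± 0.121. The call against no virus was lost without either array of that group, shMYCN array B of 24 hours, A of 48 hours, or A or B of 72 hours (adjusted p = 0.0644 to 0.248). Pairs among the 8 brighter probe sets correlated at r = -0.254 to 0.772 (median 0.270) over the 11 arrays. With the mean of all NTRK3 probe sets in place of the brightest, the log2 fold change was -0.21 and missed the threshold (adjusted p = 0.0513), as it did at 72 hours (-0.30, adjusted p = 0.0993). The brightest probe set also missed it over 24 and 48 hours alone, without the control virus array of 72 hours (-0.49, adjusted p = 0.0768).

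**Figure D3:**
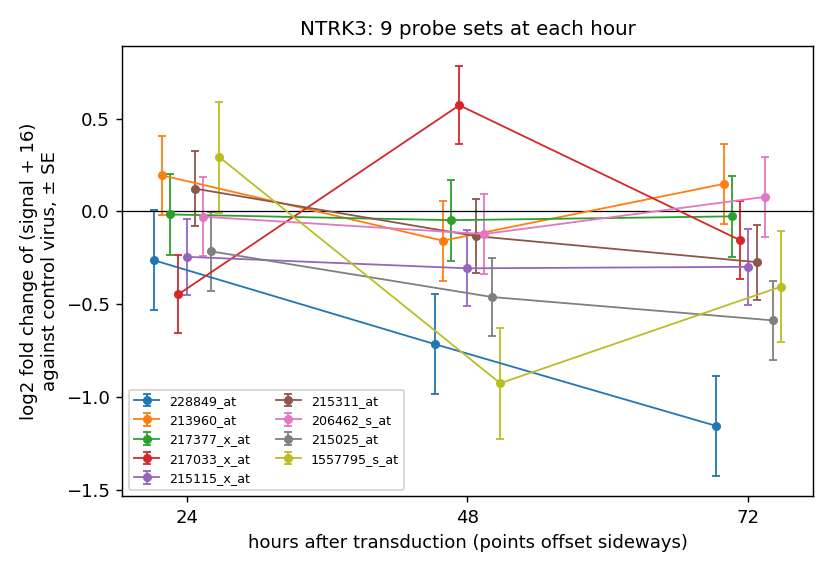
Log2 fold change of signal + 16 (vertical axis, ± SE) between the shMYCN label and control virus at 24, 48 and 72 hours (horizontal axis, points offset sideways) for each of the 9 NTRK3 probe sets, 1 line each. At 72 hours 7 of the 9 lie below 0, and 228849_at is lowest at -1.16.

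ALK rose slightly on arrays labelled shMYCN. Its brightest probe set, 208212_s_at, read 431 and 425 without virus and 384.5, 415 and 428 with control virus at 24, 48 and 72 hours. On arrays labelled shMYCN it read 444 and 450.5 at 24 hours, 462 and 486 at 48 hours, and 525 and 493 at 72 hours. All 6 lay above all 5 arrays without the MYCN hairpin, which was so for 8.42% of all genes tested. No single hour passed: the log2 differences were 0.21 ± 0.10, 0.18 ± 0.10 and 0.24 ± 0.10 (adjusted p = 0.446, 0.224 and 0.0766). Against no virus the difference was 0.15 ± 0.06 and did not pass (adjusted p = 0.107). The call for the mean over 3 hours was lost when arrays were scaled to a common median (0.17, adjusted p = 0.0626) and without the control virus array of 72 hours (0.20, adjusted p = 0.0751). In the fit of every probe set ALK 208212_s_at passed (adjusted p = 0.0205). There its call was lost with median scaling, without the variance trend, and without any 1 of 6 arrays: control virus of 72 hours, either array without virus, either shMYCN array of 24 hours, or A of 72 hours (adjusted p = 0.0514 to 0.112). In the main fit the 72-hour difference passed without array A or B of 48 hours (adjusted p = 0.0215 and 0.0214), as did the rise from 24 to 72 hours under the shMYCN label (0.18, adjusted p = 0.0306 with A left out, against 0.0975 with all arrays). The difference from no virus passed without array A of 48 hours (0.16, adjusted p = 0.0302). In order of mean signal the shMYCN-labelled groups came highest, 509, 474 and 447 at 72, 48 and 24 hours, each apart from its neighbour by more than the pooled SD of 14.5. No virus (428.1) and control virus at 72 hours (427.8) did not differ beyond that SD.

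The second ALK probe set, 208211_s_at, read 131 and 120.0 without virus, 85.2, 138 and 121 with control virus, and 107 to 149.6 on arrays labelled shMYCN, and its groups overlapped. Its difference of 0.15 ± 0.08 did not pass (adjusted p = 0.312), and it correlated with the brighter one at r = 0.516.

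In the main fit RET and its co-receptor GFRA1, by their brightest probe sets, gave no call against control virus. RET was dim throughout: its 3 probe sets read 1.2 to 25.6 over all arrays, and 205879_x_at alone was above the brightness limit. Its mean signal of 16.1 was close to that limit of about 14.8, and its suffix x marks probes that can also bind other genes. That probe set read 18.3 and 11.8 without virus, 23.9, 22.9 and 9.8 with control virus, and 7.6 to 21.7 on arrays labelled shMYCN. Its mean difference was -0.12 ± 0.16 (95% interval -0.47 to 0.24, adjusted p = 0.603). The other 2 RET probe sets, both below the brightness limit, had positive differences, the larger 0.30. In the fit of every probe set none of the 3 passed (smallest limma adjusted p = 0.0983).

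GFRA1 probe set 227550_at read 256 and 241 without virus and 273, 266 and 374 with control virus at 24, 48 and 72 hours. It read 276 and 331.5 at 24 hours, 261 and 366 at 48 hours, and 363.5 and 359.6 at 72 hours under the shMYCN label. The 6 arrays overlapped the control virus arrays and lay above both arrays without virus. Its difference from control virus was 0.099 ± 0.098 (95% interval -0.12 to 0.31, adjusted p = 0.455), and passed without shMYCN array A of 48 hours (0.18, adjusted p = 0.0390). At 48 hours alone it was 0.20 ± 0.17, and without that array it passed (0.44, adjusted p = 0.0253). Against no virus it was 1.28-fold higher (log2 0.36 ± 0.11, adjusted p = 0.0311). In that comparison, where 30.8% of genes were called (17.7% higher and 13.1% lower), 1 receptor rose and 2 fell. Control virus against no virus gave a GFRA1 difference of 0.26 ± 0.13 (adjusted p = 0.954). The GFRA1 call against no virus was lost without any 1 of 5 arrays: either array without virus (adjusted p = 0.113 and 0.204), shMYCN array B of 24 hours (0.0766), or array A or B of 72 hours (0.0669 and 0.0635). It was also lost with median scaling, with dim genes kept, without the variance trend, and with the mean of all probe sets (0.018, adjusted p = 0.884).

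The 3 GFRA1 probe sets did not move together, with r of -0.439 to 0.409 between pairs. Probe set 230163_at read 50.5 and 52.8 at 48 hours under the shMYCN label and 88.7 on the control virus array of that hour. This was the lowest pair and the highest single value of its 11 arrays. The difference at 48 hours was -0.63 ± 0.13 and passed in the fit of every probe set (adjusted p = 0.0344), in which 4.33% were called. At 24 and 72 hours it was 0.072 and -0.099. The call at 48 hours was lost with median scaling (adjusted p = 0.0502) and without any 1 of 6 arrays of other groups, no virus 1 or 2 or shMYCN A or B of 24 or 72 hours (adjusted p = 0.0706 to 0.0788).

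**Figure D4:**
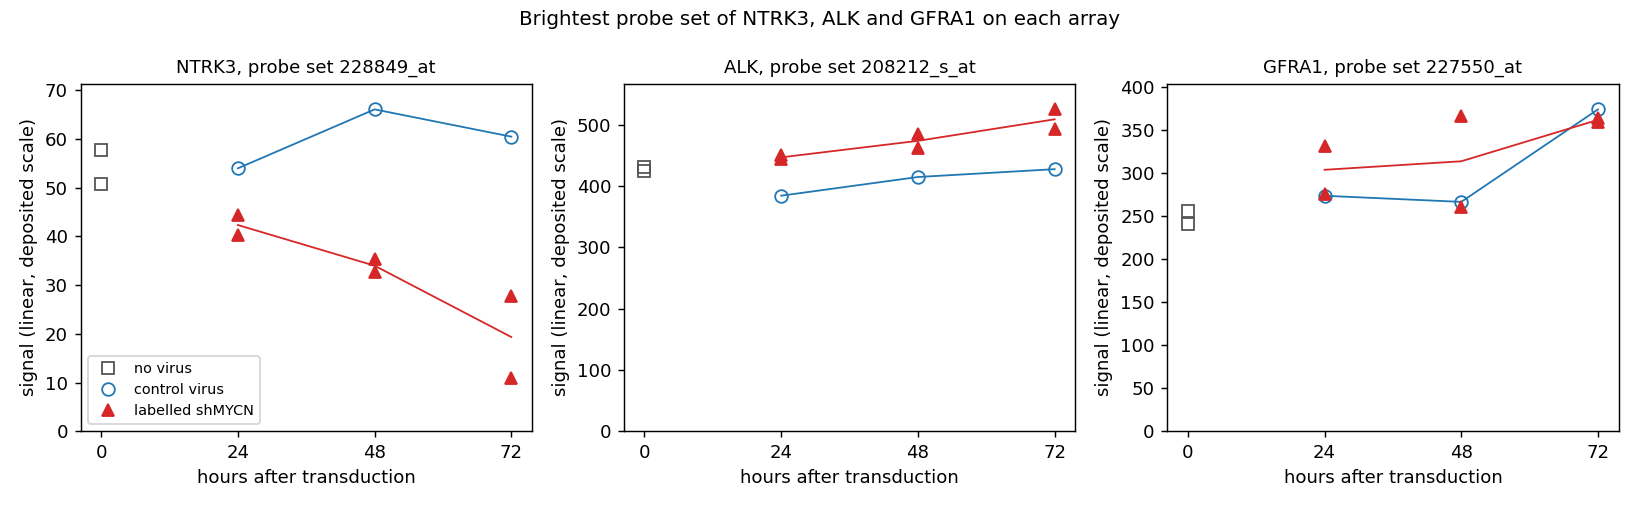
Signal (linear, deposited scale, vertical axes from 0) of the brightest probe set of NTRK3, ALK and GFRA1 on each of the 11 arrays against hours after transduction, with lines through group means. The filled triangles of the shMYCN label lie below all other arrays for NTRK3 (10.9 to 44.4 against 50.8 to 66.1), above them for ALK (444 to 525 against 384.5 to 431) and overlap the control virus arrays for GFRA1.

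NTRK2, NGFR and GFRA3 were below the brightness limit on average and were tested in the fit of every probe set. The 6 NTRK2 probe sets read 0.3 to 19.0 over all arrays, the NGFR probe set 3.5 to 18.4, and the 2 GFRA3 probe sets 0.7 to 11.3. None of these 9 probe sets passed for the mean over 3 hours, with log2 differences of -0.30 to 0.24 and a smallest adjusted p of 0.156. The NGFR probe set 205858_at read 17.0 and 7.2 on the 2 arrays without virus, and its group means ran from 4.3 to 17.2. Detection calls were not used here.

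At 24 hours no receptor was called in limma, and none of the 5 had an unadjusted p under 0.05, where 0.708% of genes were called and 1370 genes had such a p. At 48 hours 1 receptor, GFRA2, fell, with 17% of genes called and 6.9% called lower. At 72 hours 2, GFRA2 and NTRK3, fell, with 34% called and 15.7% called lower. From 24 to 72 hours under the shMYCN label GFRA2 and NTRK3 fell, with 36.4% called and 18.3% called lower. The difference of the shMYCN effect between 72 and 24 hours was called for none of the 5 by limma (2 at an unadjusted p under 0.05), with 10.3% of genes called. Control virus against no virus called none (0 at an unadjusted p under 0.05), with 0.0337% of genes called. Control virus at 72 against 24 hours also called none (1 at an unadjusted p under 0.05, GFRA1), with 0.126% called. In the fit of every probe set, 1 of the 28 rose and 3 fell for the mean over 3 hours, where 7.83% of probe sets were called higher and 6.89% lower. There 2 fell at 48 hours (4.33% called, 2.36% lower), 3 at 72 hours (12.5% called, 6.18% lower), 3 against no virus (10.8% called, 5.13% lower) and 2 from 24 to 72 hours under the shMYCN label (13.7% called, 6.38% lower). Of these, GFRA2 205721_at was lost at 72 hours without either shMYCN array of that hour (adjusted p = 0.0737 and 0.101) and against no virus without either array of that group (0.0830 and 0.120). NTRK3 228849_at was lost at 72 hours without any 1 of 5 arrays: either array without virus, either shMYCN array of 24 hours, or A of 72 hours (0.0538 to 0.0635). Comparisons against the same control virus arrays share those arrays and are not independent of each other.

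Across the 11 arrays NTRK3 correlated with GFRA2 at r = 0.795, and ALK correlated with NTRK3 at r = -0.895 and with GFRA2 at r = -0.847. These are descriptions over 7 groups that share the time course. The genes with the highest correlation with each were also listed over the 11 arrays. For GFRA2 they were GGNBP2 and PELO (both r = 0.988) and ARPC1A (0.987), with 685 of 11864 genes above 0.9. For NTRK3 they were NOL6 (0.964), RASA2 and POLR1G (both 0.961), with 216 above 0.9. For ALK they were MTMR1 (0.974), HIPK3 (0.972) and MIB1 (0.965), with 352 above 0.9. By Spearman correlation, PELO alone was again among the first 3 of its receptor.

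Ligands of these receptors were measured next. Of 4 neurotrophins BDNF, the NTRK2 ligand, was the only 1 with a probe set of its own, so NTF3, the NTRK3 ligand, was not measured. GDNF and ALKAL1 had no probe set of their own either. BDNF rose 1.28-fold (log2 0.36 ± 0.11, adjusted p = 0.0277), where 22.2% of all genes were called higher. Its probe set 206382_s_at read 65.6 to 87.5, median 74.4, on the 5 arrays without the MYCN hairpin and 82.5 to 120.7, median 100.2, on the 6 labelled shMYCN, so the ranges overlapped. The other BDNF probe set gave 0.049 ± 0.104. The BDNF call was lost when dim genes were kept (adjusted p = 0.0756), and without the control virus array of 48 hours (0.157) or 72 hours (0.0853), or shMYCN array B of 24 hours (0.0659) or of 72 hours (0.0720). Of the GDNF family, artemin (ARTN) gave -0.21 ± 0.13 and persephin (PSPN) -0.0068 ± 0.1032, and neurturin (NRTN), the GFRA2 ligand, was below the brightness limit at 1.5 to 31.4. The ALK ligand ALKAL2 gave 0.24 ± 0.13, midkine (MDK) 0.13 ± 0.07 and pleiotrophin (PTN) -0.050 ± 0.068, and none of these 3 passed. MDK was higher at 72 hours, where it read 1926 and 1808 under the shMYCN label and 1396 with control virus (log2 0.41 ± 0.12, adjusted p = 0.0169). For the mean over 3 hours MDK passed with quantile normalization (0.18, adjusted p = 0.0171) and without control virus of 24 hours (0.23, 0.0396) or shMYCN array A of 48 hours (0.17, 0.0311). Its sign turned over 24 and 48 hours alone, without control virus of 72 hours (-0.011), as did that of PTN (0.045).

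Among co-receptors and receptor-associated proteins, 4 of 11 tested genes rose and the other 7 did not pass (median log2 fold change 0.076), beside 22.2% of all genes called higher. LINGO1, which joins NGFR in the receptor for myelin inhibitors, rose 1.38-fold (0.47 ± 0.12, adjusted p = 0.0110). RTN4R, the Nogo receptor of the same complex, rose 1.24-fold (0.31 ± 0.08, adjusted p = 0.0113), with 162.9 to 223 on arrays labelled shMYCN above 140.2 to 155 on the other 5. MAGED1, which binds the inner part of NGFR, rose by 0.25 ± 0.06 and KIDINS220, a TRK substrate, by 0.20 ± 0.06 (adjusted p = 0.00697 and 0.0140). All 4 calls were lost without the control virus array of 72 hours (adjusted p = 0.146, 0.177, 0.0515 and 0.308). That of KIDINS220 was lost without control virus of 48 hours (0.0577) and with median scaling (0.0670) and in an additive model (0.0630) too, and its mean over all probe sets was 0.090 (0.249).

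Of 27 adaptors of TRK, RET and ALK, 3 rose and 1 fell (median 0.0054), a smaller share than the 22.2% higher and 15.8% lower of all genes. SHC3, the neuronal SHC adaptor of TRK receptors, rose 1.47-fold (0.56 ± 0.08, adjusted p = 0.000278). It read 94.8 to 120.9 on the 5 arrays without the MYCN hairpin and 127 to 242 on the 6 labelled shMYCN, though 1 of its other 2 probe sets gave -0.027. DOK5, a docking protein that binds RET, rose 1.45-fold (0.54 ± 0.09, adjusted p = 0.000510), and its other probe set gave 0.52 ± 0.10. GRB10, an adaptor that binds RET and insulin receptors, fell 1.53-fold (-0.61 ± 0.06, adjusted p = 1.38e-05). It read 582 to 694 without the MYCN hairpin and 303.5 to 530.2 under the shMYCN label. Its other 3 probe sets were negative and none passed (-0.39 to -0.12). IRS1, an insulin receptor substrate, gave 0.41 ± 0.10 (adjusted p = 0.00713), and its other 2 probe sets gave -0.27 and -0.19, so the mean of all 3 was -0.017. The IRS1 call was lost without the control virus array of 48 hours (0.0866) or 72 hours (0.109).

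Of 23 tested genes that feed back on RAS-ERK signalling or respond early to it, 15 rose and the other 8 did not pass, with log2 fold changes from -0.17 upward over the list. Their median log2 fold change was 0.38, beside 0.037 for all genes, and 22.2% of all genes were called higher. PHLDA1, an early response gene, rose 1.92-fold (0.94 ± 0.08, adjusted p = 5.95e-06). It read 238 to 513, median 261.5, without the MYCN hairpin and 350.6 to 1174, median 767, on arrays labelled shMYCN. ETV5, an ETS factor induced by ERK, rose 1.75-fold (0.81 ± 0.07, adjusted p = 9.83e-06), and read 83.9 to 150.8 and 150.9 to 281. The ERK phosphatases DUSP6 and DUSP4 rose 1.67-fold and 1.56-fold (0.74 ± 0.09 and 0.64 ± 0.08, adjusted p = 5.87e-05 and 0.000102). The remaining 11, named after their values were seen, were ETV1, SPRY2, ETV4, EGR1, SPRED3, ARC, SPRED2, JUN, VGF, SPRY4 and IER2, with log2 fold changes of 0.20 to 0.89. Of these, ARC and ETV4 were dim. ARC read 2.2 to 18.7 without the MYCN hairpin and 14.1 to 35 under the shMYCN label, and ETV4 read 8 to 20.6 and 17.4 to 51.4. The lowest values, 2.2 and 8, were both of the control virus array of 48 hours. Of 25 other probe sets of the 15 genes, 23 had the same sign. In the fit of every probe set 12 of them were called higher, beside 7.83% of all probe sets. They were read on the same arrays by which the 15 genes were picked, so they give no separate test.

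In this list 1 gene, ETV5, rose at 24 hours (0.75, adjusted p = 0.0225), 10 rose at 48 hours and 15 at 72 hours, where 0.118%, 10.1% and 18.3% of all genes were called higher. PHLDA1 also rose between 24 and 72 hours with control virus alone (1.06, adjusted p = 0.0320), from 238 to 513. In control virus at 72 against 24 hours 7 of the 23 genes were higher at an unadjusted p under 0.05, and none lower, where 881 of all genes had such a p in either direction. In control virus against no virus 8 were higher and 1 lower at that p, where 631 of all genes had one, and none was called. NAB2, an inhibitor of EGR factors named after its values were seen, did not pass, but was called lower with the mean of all probe sets (-0.41, adjusted p = 0.00365) and without shMYCN array B of 48 hours (-0.26, adjusted p = 0.0398). The count of 15 was 9 over 24 and 48 hours alone, without the control virus array of 72 hours. It was 6 when the dimmest 60 percent of genes were left out, of fewer genes tested. No receptor's part in these values was tested.

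Of 13 genes for receptor down-regulation, 7 rose and 2 fell (median 0.24), beside 22.2% and 15.8% of all genes. CBLB, a ubiquitin ligase for activated receptor kinases, rose 1.57-fold (0.65 ± 0.06, adjusted p = 1.77e-05). It read 252 to 293 without the MYCN hairpin and 315 to 629.6 under the shMYCN label. SH3KBP1, the CBL-interacting endocytic adaptor, rose by 0.40 ± 0.06 (adjusted p = 0.000452). PTPRF, a receptor tyrosine phosphatase, fell 1.76-fold (-0.81 ± 0.09, adjusted p = 3.97e-05), and 2 of its other 3 probe sets fell as well (-1.11 and -0.90), while the last gave 0.22 and did not pass. NEDD4, a ubiquitin ligase, fell 1.49-fold (-0.58 ± 0.12, adjusted p = 0.00263). The calls of SH3KBP1 and NEDD4 were lost without the control virus array of 72 hours (adjusted p = 0.0995 and 0.0973).

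Among 20 other receptor tyrosine kinases, 3 rose and 2 fell (median 0.088), a smaller share than the 22.2% and 15.8% of all genes. KIT, the stem cell factor receptor, fell 1.74-fold (-0.80 ± 0.11, adjusted p = 0.000157). It read 258 to 354.5 without the MYCN hairpin and 152.5 to 238 under the shMYCN label. FGFR3 fell 1.54-fold (-0.62 ± 0.12, adjusted p = 0.00211), though without the control virus array of 72 hours it missed the threshold (0.0501). EGFR gave 0.32 ± 0.09 and INSR 0.37 ± 0.12 (adjusted p = 0.0184 and 0.0298). The EGFR call was lost without the control virus array of 48 hours (0.0577) or 72 hours (0.517), with dim genes kept (0.0532), in an additive model (0.0824) and with the mean of all probe sets (0.042, adjusted p = 0.706). That of INSR was lost with dim genes kept (0.0832) and without any control virus array (0.0519 to 0.174), either shMYCN array of 24 hours, or array A of 72 hours (0.0574 to 0.0748). The third that rose, PDGFRB (0.35 ± 0.11), was named after its value was seen and is also a fibroblast marker. Of 8 transcription regulators described for RET and TRK genes none was called in limma, and 1 had an unadjusted p under 0.05, with log2 fold changes of -0.21 to 0.18.

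**Figure D5:**
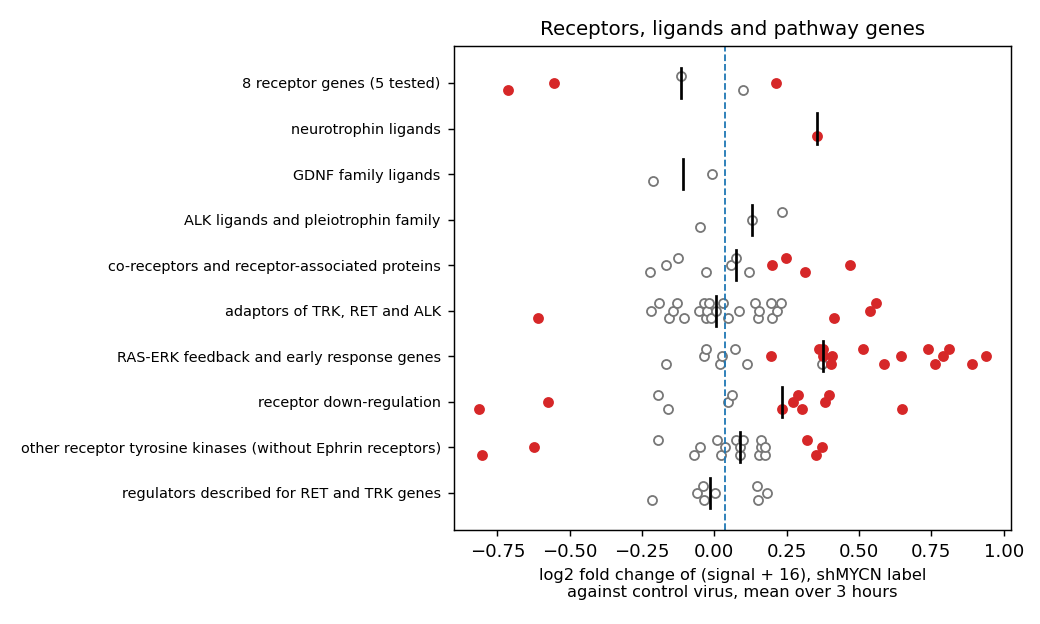
Log2 fold change of signal + 16 (horizontal axis) between the shMYCN label and control virus, averaged over 3 hours, for each tested gene (points, spread vertically for view) of the receptors and 9 lists (vertical axis). Red filled points have a limma adjusted p under 0.05, black bars are list medians and the dashed line is the median of all genes, 0.037; 15 of 23 RAS-ERK genes are filled, all to the right of 0.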

How the data were processed

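RNA of 11 samples was measured on 1-colour Affymetrix arrays. The authors deposited a linear signal intensity per probe set. MAS5 and GCOS are named per the submitters' processing notes, with no version. The values of each array average 100 once its 2 percent brightest and 2 percent dimmest probe sets are set aside, so total RNA per cell is not measured. How background was corrected is not given in the sources used here.

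Of 54675 probe sets (62 controls, left out), 41091 had 1 symbol in the platform annotation, 1801 more than one, and 11721 were not named in it. For 41037 the symbol was taken by Entrez number from the RefSeq table of GRCh38.p14, whether or not it differed from the annotation. A gene was represented by its brightest probe set, and the dimmest 40 percent of 19775 genes were left out, leaving 11865. Log2(signal + 16) was fitted with a mean for each of 7 groups (limma 3.58.1, R 4.3.3, eBayes with trend, 4 residual and 7.35 prior degrees of freedom). Groups of 1 array take their spread from the groups of 2. Tests were two-sided, Benjamini-Hochberg adjusted over all genes, threshold 0.05. A second fit held all 41091 probe sets without the filter and was used where probe sets of a gene are compared, as named there. The log2 offset understates the folds of dim genes, and the number of arrays limits precision.

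The receptors, gene lists and rule for named genes were chosen with earlier results of these data known. The rule took all receptors, every measured ligand, up to 4 called genes per other list by smallest p, the 3 genes most like each called receptor, and MYCN. Alternatives were other offsets, scalings, filters, probe set choices, variance models, an additive model, a block for the array letter, and leaving out each array. The letters did not pair the arrays: deviations of A from B correlated at -0.051, 0.038 and 0.100 between hours.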

Additional observations from a re-analysis of the deposited data

Results flagged for a closer look

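In 6 of the named genes the difference between the shMYCN label and control virus itself changed between 24 and 72 hours, by the interaction term of the limma fit, which was called for 10.3% of genes. Each rests on 1 control virus array per time. The differences became more positive for CBLB by 0.65 ± 0.16 on the log2 scale (SE, adjusted p = 0.0240), SH3KBP1 by 0.72 ± 0.15 (adjusted p = 0.0140), DUSP6 by 0.78 ± 0.21 (adjusted p = 0.0383) and EGFR by 0.80 ± 0.23 (adjusted p = 0.0467). They became more negative for GRB10, at -0.89 ± 0.14 (adjusted p = 0.00357), and PTPRF, at -0.98 ± 0.22 (adjusted p = 0.0179). No group had more than 2 arrays, so single arrays were not tested as outliers.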

How the results depend on the processing

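Of the 24 named genes called for the mean over 3 hours, all stayed past the threshold with an offset of 1 or 64, quantile normalization and a variance model without trend. Under the letter A or B as a replicate block none of the 24 was lost, and the block changed the call of 1 member probe set, NTRK3 217033_x_at against no virus (-0.54, adjusted p = 0.0634). The count over all genes was 4763 with the block and 4500 without it. Without the control virus array of 72 hours 13 of the 24 were lost and none turned sign, on 2 control virus arrays rather than 3.

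Counts of genes called moved by over 1.5 times as follows, and the causes were not tested. At 24 hours 84 genes became 129 with median scaling, 35 with no filter, 48 with the mean of probe sets and 35 without trend. Control virus against no virus went from 4 to 7 with quantile normalization, 8 with median scaling, 0 with no filter or without trend, and 2 with the mean of probe sets. Control virus at 72 against 24 hours went from 15 to 3, 8 and 4 with no filter, mean of probe sets and no trend. The interaction went from 1227 to 651 with no filter. The RAS-ERK count of 15 became 6 with the dimmest 60 percent left out. Median scaling moved the split of calls for the mean over 3 hours from 2629 higher and 1871 lower to 2062 and 2194, at 72 hours from 2166 and 1868 to 1456 and 2508, against no virus from 2095 and 1556 to 1498 and 1968, from 24 to 72 hours under the shMYCN label from 2149 and 2172 to 1531 and 2722, and for the interaction from 536 and 691 to 374 and 805.

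Signs turned for PSPN (0.11 with offset 64, 0.26 with median scaling, 0.14 with the mean of probe sets) and for the ALK interaction (-0.037 with median scaling, -0.17 with the mean of probe sets). The mean of probe sets also turned GFRA1 for the mean over hours (-0.061) and at 48 hours (-0.19), IRS1 (-0.017), ALK at 48 hours (-0.017) and NTRK3 in control virus at 72 against 24 hours (-0.11).

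Leaving out 1 array at a time, the genes called ranged from 1938 to 5603 (mean over hours), 3 to 413 (24 hours), 1556 to 3587 (48 hours), 1752 to 4837 (against no virus), 0 to 36 (control virus against no virus), 2648 to 5489 (72 against 24 hours, shMYCN label), 557 to 2478 (interaction) and 3 to 87 (control virus, 72 against 24 hours), and the RAS-ERK count from 9 to 15. Log2 values that turned sign ranged for RET from -0.27 to 0.070 (mean), -0.13 to 0.52 (72 hours), -0.12 to 0.18 (against no virus), -0.0037 to 0.35 (control virus against no virus) and -0.27 to 0.38 (72 against 24 hours). They ranged for PSPN from -0.14 to 0.094, MDK -0.011 to 0.23, PTN -0.11 to 0.045, GFRA2 in control virus against no virus -0.18 to 0.0036, the ALK interaction -0.012 to 0.077 and GFRA1 at 48 hours -0.029 to 0.44.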
